A study of Mus musculus with 16 samples.

Results

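Kcnj13 and 9 other genes that mark the choroid plexus epithelium (Ttr, Folr1, Clic6, Kl, Otx2, Aqp1, Slc4a5, Prlr and Cldn2) were examined in whole mouse brains to ask whether Kcnj13 moves with the tissue it belongs to. These are 10 of the 24062 genes of the deposited count table, and all 10 were also in the FPKM table and had enough reads to be tested. They were selected on measured values: Kcnj13 was chosen because edgeR called it in both ethanol groups against the water controls, and the other 9 because they are known choroid plexus genes set beside it. Its differences in those comparisons are therefore described and not tested.

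RNA-seq was run on the whole brain, cerebellum included, of 16 singly housed female mice of the inbred strain C57BL/6J, with 1 library per brain and dissection in adolescence on postnatal day 45. There were 4 groups of 4 mice, and the labels give the mice of a group as its replicates. WW mice drank water only. For 22 h per day, NW mice drank nicotine at 200 µg/ml in place of water. Water-Ethanol mice, labelled by their initials in the plots, had water and 20% v/v ethanol under drinking-in-the-dark, a limited-access procedure in the dark phase, on 4 days. NE mice had both nicotine and ethanol, but the nicotine bottles were removed for each ethanol session. The last ethanol session lasted 4 h and ran up to dissection, so the brains were taken at the end of drinking. NW and NE mice had no nicotine to drink during those 4 h. The paper reports that NE mice drank more ethanol in that session than Water-Ethanol mice and had higher blood ethanol, so these groups differ in ethanol exposure too. Each mouse is named by its group and the number in its label.

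The choroid plexus is a thin epithelium folded into the brain ventricles that secretes cerebrospinal fluid and forms a barrier between blood and that fluid. Its cells move sodium, bicarbonate, chloride, potassium and water from blood to ventricle with polarised sets of transporters and channels, and they make carrier proteins such as transthyretin. Kcnj13 encodes Kir7.1, an inwardly rectifying potassium channel of the epithelium's ventricle-facing membrane, where potassium leaks back so that the sodium pump can keep running.

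Counted reads per mouse lay between 27100352 and 32880979 (median 29448284), and the correlation across genes of log2 CPM (read counts scaled to library size) between any pair of mice was at least 0.994. A pair of mice without ethanol stood apart. The summed FPKM (fragments scaled to transcript length and library size) of 4 cerebellar granule cell markers was 63.3 in WW replicate 21 and 89.9 in NW replicate 10, against 193 to 229 in the other 14 mice. NW replicate 10 also had 23.7 summed FPKM of 5 pituitary genes, against 1.63 to 4.27 in the other 15 mice. Its ribosomal RNA gene Rn45s held 3.90% of counts, against 0.274% to 1.37% elsewhere. Results that rest on this pair of mice are given with and without them.

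Kl and Slc4a5 varied with Kcnj13 over all 16 mice, but neither relation passed its permutation test without NW replicate 10. The upstream sequences of Kcnj13 and of these 2 genes are shown because they are where the transcription of these genes starts. Each is the 250 bases before a RefSeq start site on GRCm38.p6, read 5′ to 3′ on the gene's own strand. They are chr1:87394730-87394979 on the minus strand for Kcnj13, chr5:150952357-150952606 on the plus strand for Kl and chr6:83237125-83237374 on the plus strand for Slc4a5. Capitals mark TATAAA or CCAAT on either strand, the latter read as ATTGG and the former as TTTATA on the opposite strand.
Kcnj13: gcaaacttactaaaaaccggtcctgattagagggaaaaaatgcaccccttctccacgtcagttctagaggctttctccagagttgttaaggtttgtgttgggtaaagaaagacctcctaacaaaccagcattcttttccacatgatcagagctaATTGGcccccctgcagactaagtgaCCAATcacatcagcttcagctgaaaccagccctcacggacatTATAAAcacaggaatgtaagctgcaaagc
Kl: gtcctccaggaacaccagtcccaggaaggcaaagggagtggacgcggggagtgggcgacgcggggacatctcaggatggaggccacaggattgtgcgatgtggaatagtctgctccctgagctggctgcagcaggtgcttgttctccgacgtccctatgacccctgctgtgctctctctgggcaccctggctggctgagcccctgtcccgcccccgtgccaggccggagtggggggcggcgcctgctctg
Slc4a5: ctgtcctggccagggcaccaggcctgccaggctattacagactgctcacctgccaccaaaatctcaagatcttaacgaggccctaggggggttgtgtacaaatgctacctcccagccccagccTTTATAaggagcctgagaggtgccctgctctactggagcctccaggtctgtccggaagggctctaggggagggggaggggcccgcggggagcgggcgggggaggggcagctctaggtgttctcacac

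The Kcnj13 window holds TATAAA with its first base 29 bases before the start site, and CCAAT at 71 bases and, on the opposite strand, at 96 bases before it. TATAAA is the core of the TATA box, and CCAAT is the core of the CCAAT box. Of all 32851 windows of this length, 12.4% hold TATAAA and 33.8% hold CCAAT on either strand. The motif TAATCC, the letters that Otx-type homeodomains are known to prefer, is in 6.25% of all windows and, among the members, in 1 of the Otx2 windows only. The search covered 12 windows of 7 members (Kcnj13, Kl, Otx2, Aqp1, Slc4a5, Prlr and Cldn2). No match says only that these letters are not in the window.

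Kcnj13 (ENSMUSG00000079436) lies on chromosome 1 from 87386284 to 87394729 on the minus strand of GRCm38 and has 3 exons of 1349 bases in the count table. Its level was 6.52, 7.57, 5.83 and 6.54 CPM in WW replicates 18, 19, 20 and 21. In NW replicates 7, 8, 10 and 11 it was 6.80, 7.09, 5.92 and 6.95 CPM. These 8 mice without ethanol overlapped completely, between 5.83 and 7.57 CPM. In Water-Ethanol replicates 13, 14, 15 and 16 the level was 10.96, 10.3, 9.37 and 10.1 CPM. In NE replicates 2, 3, 4 and 5 it was 9.23, 9.30, 10.4 and 9.60 CPM. Every one of the 8 mice with ethanol was above every one of the 8 mice without, and the lowest with ethanol, NE replicate 2, was at 9.23 CPM. The share of all genes that separate in this way was not counted. The level rested on 160 to 324 reads per mouse.

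**Figure D1:**
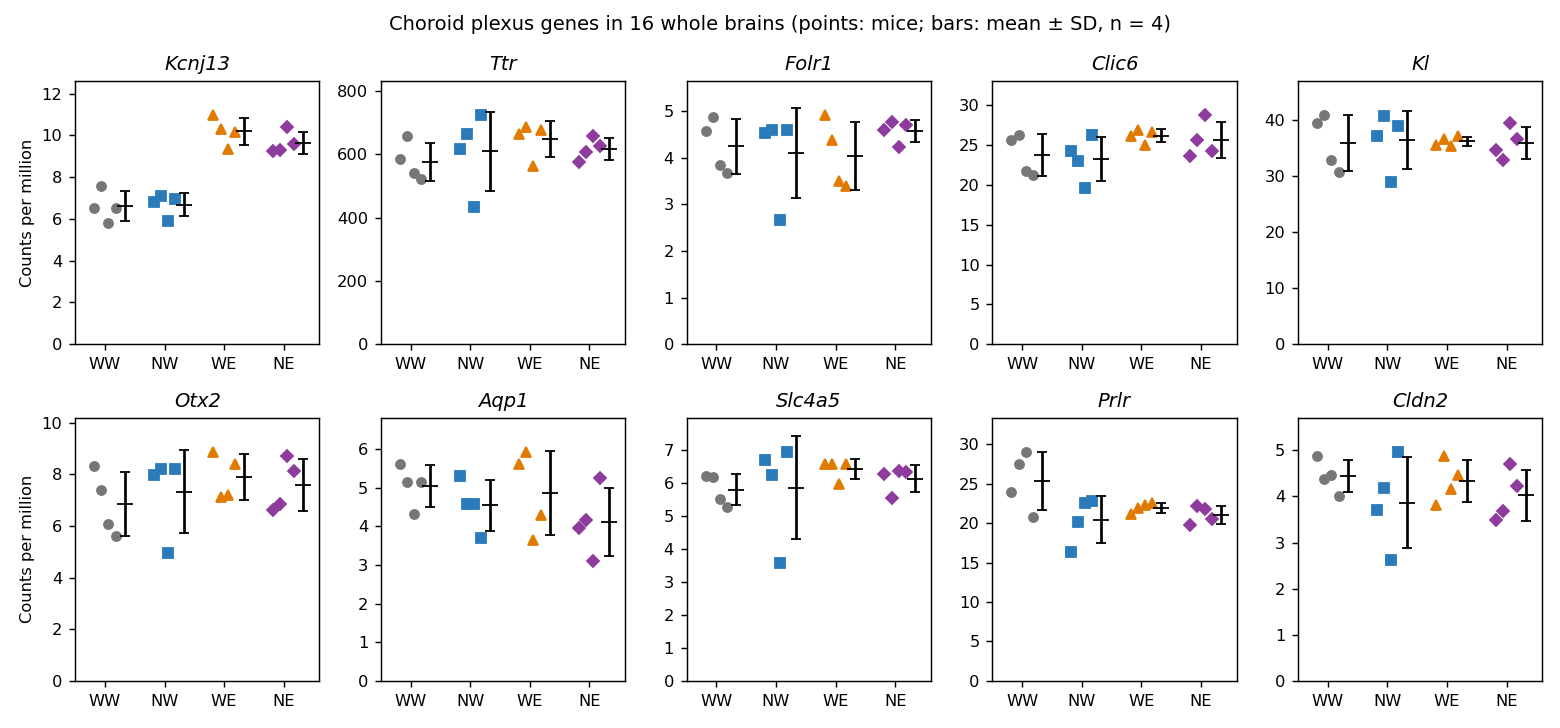
CPM (vertical axis, from 0) of the 10 genes in each of the 16 mice, by group, with Water-Ethanol labelled by its initials; points are mice and bars the mean ± SD of 4 mice. Kcnj13 lay between 9.23 and 10.96 in the 8 mice with ethanol and between 5.83 and 7.57 in the 8 without, and the groups of the other 9 genes overlapped in every comparison with WW.

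Kcnj13 was 1.54-fold higher in Water-Ethanol than in WW (log2 fold change 0.63, standard error 0.0890, n = 4 mice a group) and 1.46-fold higher in NE than in WW (0.54, standard error 0.0886). The comparison of NE with NW, which shares the NE mice, gave 1.43-fold (0.52, standard error 0.0851). These comparisons chose the gene or share mice with those that did, so they carry no test. The fold change rested on no single mouse, at 0.57 to 0.70 in Water-Ethanol and 0.49 to 0.62 in NE over the fits that left out 1 mouse, but edgeR's call did. With 1 mouse left out Kcnj13 was still called in Water-Ethanol against WW without WW replicate 18 or 21 and was no longer called without any of the other 6, and in NE against WW it was still called without WW replicate 21 only. limma on log2(FPKM + 1) did not call it, at 0.54 and 0.46 on that scale. edgeR called 0.457% of 15323 genes in Water-Ethanol against WW, 0.313% of 15313 in NE against WW and 0% of 15361 in NE against NW. These calls over all genes moved with the same mice. The 70 genes called in Water-Ethanol against WW became 797 without WW replicate 21, 84 without WW replicate 18 and 0 or 1 without any of the other 6. The 48 called in NE against WW became 283 without WW replicate 21 and between 0 and 11 without any of the other 7.

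The remaining comparisons of Kcnj13 reuse mice whose values chose it, so they too are described without a test. Between NW and WW its log2 fold change was 0.02 (standard error 0.101), and without WW replicate 21 and NW replicate 10 it was 0.07. Between NE and Water-Ethanol it was -0.09 (standard error 0.0728), and these groups overlapped. The interaction, the ethanol difference with nicotine minus that without, was -0.10 on the log2 scale (standard error 0.119). edgeR called 0% of the genes tested in each of these 3 comparisons.

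The members whose proteins carry solutes and water are Ttr, Folr1, Slc4a5, Aqp1 and Clic6. Ttr encodes transthyretin, the thyroid hormone and retinol carrier that the epithelium secretes, and was by far the most abundant member. It was at 585, 657, 540 and 520 CPM in WW replicates 18 to 21, and at 617, 663, 434 and 723 in NW replicates 7, 8, 10 and 11. In Water-Ethanol it was at 665, 687, 562 and 677 CPM in replicates 13 to 16, and in NE at 576, 607, 658 and 624 in replicates 2 to 5. All 4 groups overlapped, and both the lowest and the highest mouse were NW mice. Ttr was 1.13-fold higher in Water-Ethanol than in WW (log2 0.17, standard error 0.0758, edgeR, adjusted p = 0.234) and did not pass the test. In the plot of Kcnj13 against Ttr, mice with nearly equal Ttr sat at different Kcnj13 levels. NW replicate 8 and NE replicate 4, at 663 and 658 CPM of Ttr, had 7.09 and 10.4 CPM of Kcnj13.

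**Figure D2:**
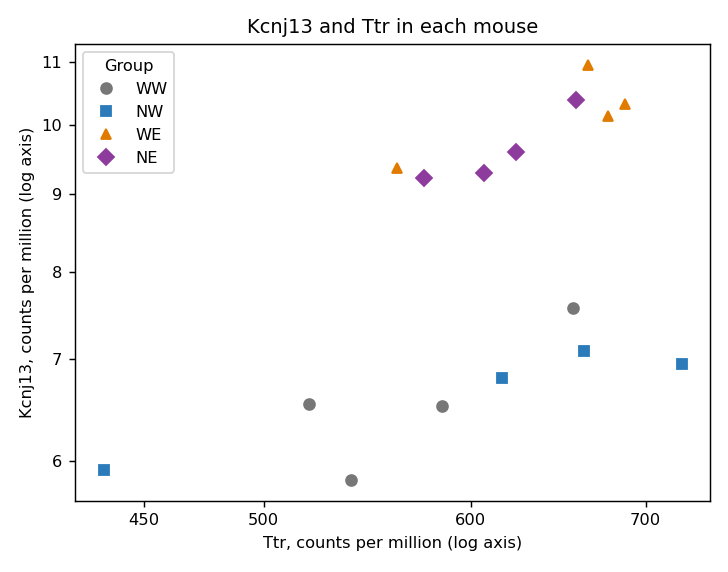
Kcnj13 (vertical) against Ttr (horizontal) in CPM, both on log axes, with 1 point a mouse and Water-Ethanol labelled by its initials. The 8 mice with ethanol form a band at 9.23 CPM of Kcnj13 and above, the 8 without a band at 7.57 and below. Within each band Kcnj13 tends to be higher where Ttr is higher, with exceptions. NW replicate 11 has the highest Ttr (723) but 6.95 CPM of Kcnj13, below WW replicate 19 (657 and 7.57).

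Folr1, the folate receptor that carries folate into the fluid, lies on chromosome 7 from 101858331 to 101870788 (minus strand). It had means of 4.24 ± 0.580 CPM in WW, 4.10 ± 0.956 in NW, 4.04 ± 0.725 in the Water-Ethanol group and 4.57 ± 0.235 in NE (SD, n = 4). Slc4a5, a sodium bicarbonate cotransporter on chromosome 6 from 83237375 to 83304945 (plus strand), had 5.81 ± 0.473, 5.87 ± 1.55, 6.43 ± 0.311 and 6.14 ± 0.402 CPM in the same order. Neither gene separated any groups. Aqp1, the water channel of the ventricle-facing membrane, is on chromosome 6 from 55336299 to 55348555 (plus strand). It was at 4.11 ± 0.885 CPM in NE, where replicate 4 had the lowest value of all 16 mice at 3.09, against 5.05 ± 0.541 in WW. Its log2 fold change in NE against WW was -0.29 (standard error 0.146, edgeR, adjusted p = 0.329). Clic6, of the chloride intracellular channel family, is on chromosome 16 from 92498147 to 92541241 (plus strand) and was at 23.8 ± 2.63 CPM in WW and 26.2 ± 0.846 in Water-Ethanol (edgeR, log2 fold change 0.14, standard error 0.0715, adjusted p = 0.296).

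Cldn2, a claudin that forms pores for sodium and water between the cells, lies on chromosome X from 139800808 to 139811388 (plus strand). It had 4.43 ± 0.350 CPM in WW and 4.33 ± 0.447 in Water-Ethanol. Otx2, the homeodomain factor that maintains choroid plexus identity, lies on chromosome 14 from 48657677 to 48667644 (minus strand). It was at 6.85 ± 1.23 CPM in WW, 7.33 ± 1.59 in NW, 7.90 ± 0.876 in the Water-Ethanol mice and 7.57 ± 1.01 in NE. Its log2 fold change of 0.21 in Water-Ethanol against WW was the largest increase among the 9 genes there, at a standard error of 0.124 (edgeR, adjusted p = 0.375).

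Kl and Prlr are membrane proteins of hormone signalling. Kl encodes klotho, a co-receptor for the phosphate hormone FGF23 that is also shed into the fluid, and lies on chromosome 5 from 150952607 to 150993817 (plus strand). Its group means were 36.0 ± 4.997, 36.5 ± 5.17, 36.2 ± 0.835 and 35.96 ± 2.84 CPM in WW, NW, Water-Ethanol and NE. The log2 fold changes of Kl against WW, between 0.00 and 0.02, were the smallest of the members in NE and in Water-Ethanol.

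Prlr, the receptor for the pituitary hormone prolactin, lies on chromosome 15 from 10177238 to 10349180 (plus strand). It was the member that came nearest to the threshold after Kcnj13, and in the other direction. WW replicates 18, 19, 20 and 21 had 23.9, 27.5, 29.0 and 20.8 CPM. NW replicates 7, 8, 10 and 11 had 16.4, 20.1, 22.5 and 22.8 CPM, Water-Ethanol replicates 13 to 16 had 21.1, 21.9, 22.2 and 22.5, and NE replicates 2 to 5 had 19.7, 22.2, 21.8 and 20.5. By CPM all 12 treated mice were below 3 of the 4 WW mice, and WW replicate 21 was the exception. FPKM did not show this. There WW replicate 18 (2.49) was the lowest WW mouse, followed by replicate 21 (2.69). Water-Ethanol replicates 15 (2.93) and 16 (2.88) and NE replicate 3 (2.90) were above both. The log2 fold changes against WW were -0.31 for NW, -0.20 for Water-Ethanol and -0.26 for NE, with standard errors of 0.119, 0.0870 and 0.0921 and the same WW mice in each. edgeR's adjusted p-values were 0.514, 0.225 and 0.178, with unadjusted p-values of 0.0241, 0.0362 and 0.0141. Without WW replicate 21, one of the brains with low cerebellar markers, the values became -0.39, -0.29 and -0.35, and edgeR's adjusted p-values 0.294, 0.0297 and 0.0356. Without that brain edgeR's calls over all genes rose as well, from 70 to 797 in Water-Ethanol and from 48 to 283 in NE against WW. Whether the low cerebellar share of that brain bears on its Prlr level was not tested. In NE against NW the Prlr difference was 0.04 (standard error 0.0918, edgeR, adjusted p = 0.887).

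Of the 9 genes beside Kcnj13, edgeR called 0 in all 6 comparisons: NW, Water-Ethanol and NE against WW, NE against NW, NE against Water-Ethanol and the interaction. At an unadjusted p under 0.05 there were 1, 2, 1, 0, 0 and 0 of the 9. Of all genes tested there were 1295 of 15344, 2965 of 15323, 2673 of 15313, 1830 of 15361, 888 of 15319 and 1054 of 15592. DESeq2, which called 0.994%, 5.14%, 4.3%, 0.765%, 0.0101% and 0.0049% of its genes in these comparisons, called none of the 9. It gave no adjusted p-value for 6 of their values, of Folr1, Aqp1 and Cldn2. limma on log2(FPKM + 1), which called 0% of genes in NW and in Water-Ethanol against WW, 0.00608% in NE against WW, 0.0182% in NE against NW, 0.00608% in NE against Water-Ethanol and 0% for the interaction, called none of the 10 members. The median log2 fold change of the 9 was -0.03, 0.01 and 0.08 in NW, Water-Ethanol and NE against WW, where the median of all genes tested was between 0.00 and 0.01. Groups that do not overlap were found for Kcnj13 in Water-Ethanol against WW, NE against WW and NE against NW, and for none of the other 9 in any comparison. Among all genes that share was 5.96% in NW against WW, 10.8% in Water-Ethanol against WW, 10.7% in NE against WW, 7.44% in NE against NW and 3.52% in NE against Water-Ethanol.

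**Figure D3:**
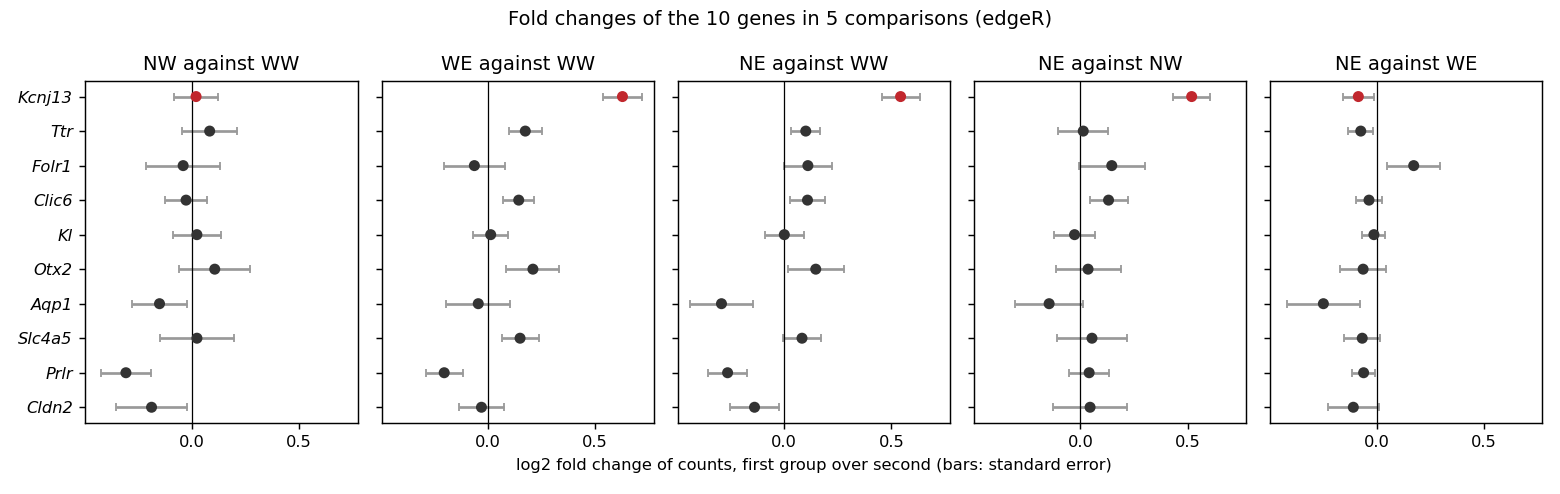
Log2 fold change of counts (horizontal axis, edgeR) with its standard error for the 10 genes in 5 comparisons, Kcnj13 in red and Water-Ethanol labelled by its initials. Kcnj13 sat at 0.63, 0.54 and 0.52 where an ethanol group was compared with a group without ethanol, and the other 9 between -0.31 and 0.21 in all 5 panels.

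To set Kcnj13 against the tissue in each brain, the mean log2(CPM + 0.5) of the other 9 genes was subtracted from that of Kcnj13. In bulk tissue fewer cells of a type and less RNA per cell cannot be told apart, and this difference removes what the 10 genes have in common on average. It was -1.19 ± 0.129 in WW, -1.11 ± 0.114 in NW, -0.63 ± 0.0394 in the Water-Ethanol group and -0.66 ± 0.0483 in NE (SD, n = 4). The difference from WW was 0.56 in Water-Ethanol and 0.53 in NE, or 1.47-fold and 1.44-fold, while the mean of the other 9 moved from 4.01 in WW to 4.05 and 4.00. Its size depended on the reference. With the median of the other 9 it was smaller, at 0.39 and 0.37, and with Ttr alone 0.42 and 0.41. Against the mean, the 8 mice with ethanol lay between -0.72 and -0.59 and the 8 without between -1.31 and -0.94. The mice without ethanol nearest to the others were the pair with low cerebellar markers, WW replicate 21 at -1.04 and NW replicate 10 at -0.94, and the remaining 6 lay between -1.31 and -1.12. Without this pair the difference from WW was 0.61 in Water-Ethanol and 0.58 in NE. Taking each other member in turn against the mean of the remaining 9, the 8 mice with ethanol overlapped the 8 without for all 9 of them. Their differences between ethanol and no ethanol lay between -0.22 for Aqp1 and 0.05 for Clic6, against 0.50 for Kcnj13. Kcnj13 is part of the reference of each of these 9, and its higher level with ethanol lowers their differences. The reference of Kcnj13 does not hold it, so the contrast is partly built in. Kcnj13 was also chosen for its level in these ethanol groups, so its standing apart from the other 9 here is not a test.

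**Figure D4:**
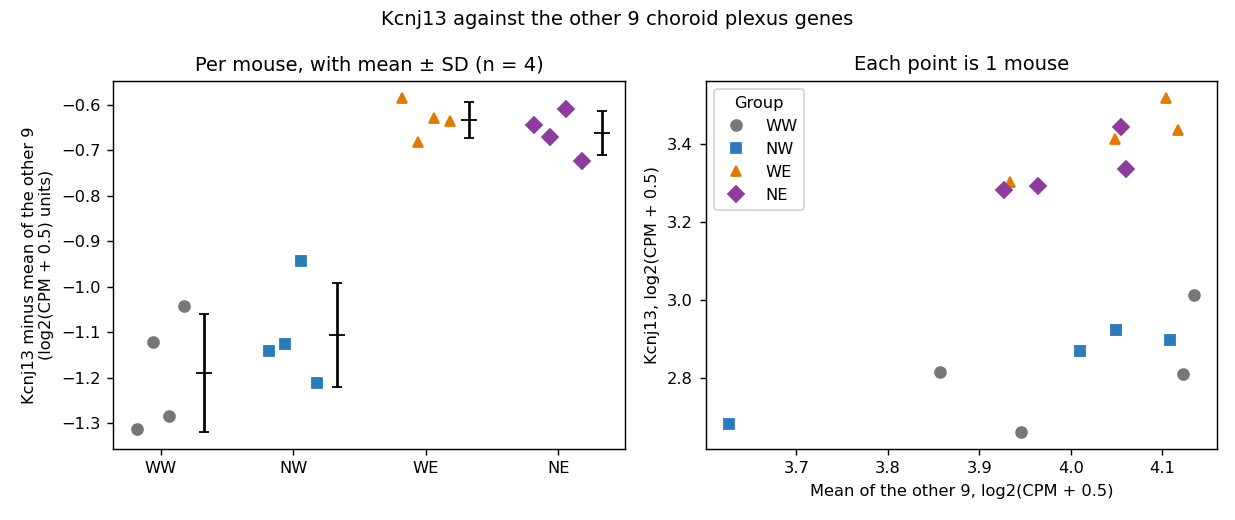
Left: Kcnj13 minus the mean of the other 9 genes in log2(CPM + 0.5) for each mouse, with mean ± SD of 4 mice a group and Water-Ethanol labelled by its initials. Right: Kcnj13 (vertical) against that mean (horizontal), 1 point a mouse; the 8 mice with ethanol lay between -0.72 and -0.59 on the left, and the 8 without between -1.31 and -0.94.

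Inside the groups, where the difference that chose Kcnj13 plays no part, Kcnj13 varied with some of the other members over all 16 mice. With group means removed, Pearson's r between Kcnj13 and Ttr over the 16 mice was 0.796 and Spearman's rho 0.847 (permutation within groups, two-sided, p = 0.00177 and 0.00199, Benjamini-Hochberg over 10 relations 0.0177 and 0.0199). When NW replicate 10 and Water-Ethanol replicate 15, farthest from the Ttr median, were left out, r was 0.709. It was 0.800 over the 8 mice without ethanol and 0.826 over the 8 with it. Kl (r = 0.740), Clic6 (0.733), Otx2 (0.706), Folr1 (0.690) and Slc4a5 (0.638) also passed, each with a Benjamini-Hochberg value of 0.0252 in the permutation test. Their rho lay between 0.659 for Slc4a5 and 0.738 for Kl, with Benjamini-Hochberg values of 0.0238 to 0.0296 in the permutation test, and r without their 2 farthest mice between 0.554 and 0.752. Cldn2 (r = 0.468, rho = 0.465, permutation p = 0.0945 and 0.0922), Aqp1 (0.183, 0.174, p = 0.487 and 0.538) and Prlr (-0.15, -0.11, p = 0.667 and 0.745) did not. The 10 genes of a mouse come from the same library, and the part of this in the correlations was not tested.

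These calls rested on few mice. By CPM, NW replicate 10 was the lowest mouse of all 16 for 7 members (Ttr, Folr1, Clic6, Kl, Otx2, Slc4a5 and Cldn2), and WW replicate 21 was the lowest WW mouse for those 7 and Prlr. Without NW replicate 10, r with Kcnj13 was 0.759 for Ttr, 0.630 for Kl and 0.178 for Cldn2, and 0 of the 10 relations passed. The count was also 0 without Water-Ethanol replicate 15, and 2 without WW replicate 19 or NE replicate 4. Without both NW replicate 10 and WW replicate 21, Ttr alone passed (r = 0.812, Benjamini-Hochberg value of the permutation test 0.0353).

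The 7 members other than Kcnj13, Aqp1 and Prlr were grouped after their values were seen, and they are also the members lowest in NW replicate 10. Over their 21 pairs r with group means removed lay between 0.521 and 0.894 with a median of 0.812. Aqp1 had r between -0.20 and 0.381 with the 7 and Kcnj13 (median 0.05), and Prlr between -0.25 and 0.122 (median -0.04). These ranges were separate only with NW replicate 10 included. Without it the 21 pairs lay between -0.06 and 0.798 (median 0.607), Aqp1 between -0.25 and 0.617 (median 0.112) and Prlr between 0.0099 and 0.537 (median 0.247). Without WW replicate 21 as well, the pairs lay between -0.20 and 0.741 (median 0.55), Aqp1 between -0.25 and 0.695 (median 0.148) and Prlr between -0.25 and 0.473 (median -0.03). The ranges then overlapped.

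**Figure D5:**
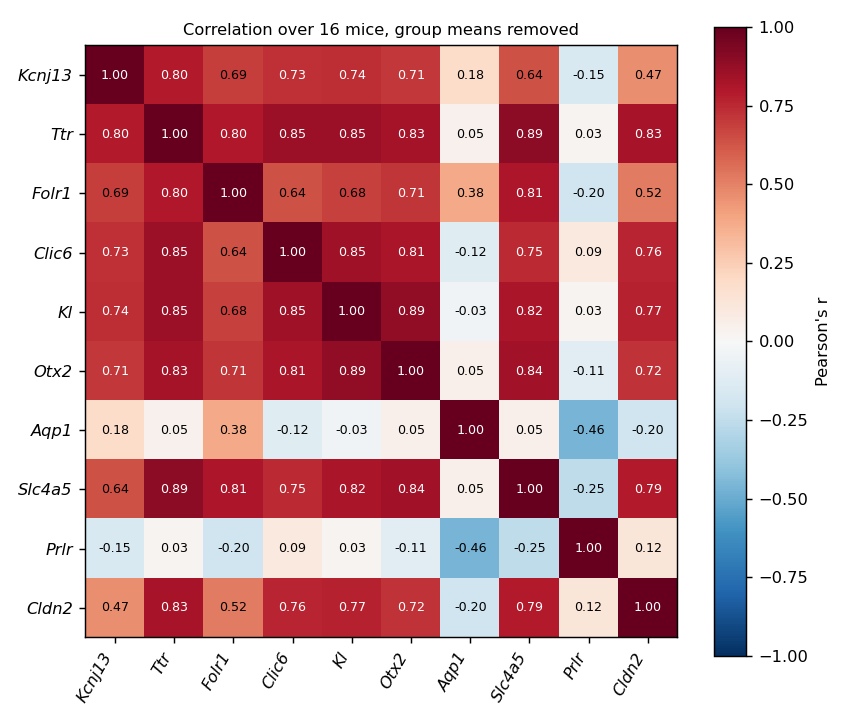
Pearson's r over 16 mice between the 10 genes, on log2(CPM + 0.5) with group means removed, with the colour scale from -1 to 1. Pairs among Ttr, Folr1, Clic6, Kl, Otx2, Slc4a5 and Cldn2 have r between 0.521 and 0.894 with all 16 mice, Kcnj13 reaches 0.796 with Ttr, and Aqp1 and Prlr have r of 0.381 and below with these genes; without NW replicate 10 the ranges overlap.

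Ranked by the same r among 15591 genes, Ttr was the gene with the sixth highest likeness to Kcnj13, Kl was at rank 20, Clic6 at 22, Otx2 at 39, Folr1 at 50 and Slc4a5 at 108. Among the 5 genes most like Kcnj13 were Cml1 (r = 0.808), Gstt1 (0.804), Rdh5 (0.801) and Pycrl (0.798). Without NW replicate 10 these r were 0.752, 0.737, 0.783 and 0.738, and the ranks were not made again. The 5 most like the mean of the other 9 were Ttr (0.957), Enpp2 (0.924), Rdh5 (0.914), Slc4a5 (0.906) and Kl (0.905), of which Ttr, Slc4a5 and Kl are part of that mean. Kcnj13 itself had r = 0.755 with that mean, at rank 238. Without NW replicate 10 the 5 had r of 0.891, 0.868, 0.776, 0.796 and 0.826 in that order, and Kcnj13 0.670. Rdh5, a retinol dehydrogenase, was the gene in both lists.

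By FPKM, which allows levels of different genes to be compared per length, Ttr was at 605 ± 73.5 over the 16 mice (SD) and above every other member in every mouse. Kl (7.42 ± 0.728), Kcnj13 (7.13 ± 1.52) and Clic6 (7.02 ± 0.695) followed and overlapped. Then came Folr1 (3.72 ± 0.564), Otx2 (3.53 ± 0.557), Prlr (2.57 ± 0.404), Aqp1 (1.83 ± 0.332), Cldn2 (1.45 ± 0.210) and Slc4a5 (1.23 ± 0.162), each overlapping the next. The highest Folr1 value (4.38) was below the lowest Clic6 value (5.48). The place of Kcnj13 in this order differed between groups. It was at 5.04 to 6.53 FPKM in WW against 6.31 to 8.31 for Kl, and at 8.004 to 9.41 in Water-Ethanol against 7.32 to 7.66. In NW it was at 4.95 to 6.12 against 5.84 to 8.34, and in NE at 7.87 to 8.93 against 6.70 to 8.12. The ranges of Kcnj13 and Kl were separate in Water-Ethanol only, and the higher Kcnj13 level with ethanol is what chose the gene.

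Kcnj13 lies inside Gigyf2, a translation regulator on the plus strand of chromosome 1 from 87326998 to 87450810. In the authors' gene models their exons share 0 bases, but in GENCODE M21 on the same build 3 Gigyf2 transcripts have exons over 669 of the 1349 Kcnj13 exon bases. Whether the counting used strand is not given in the sources used here, so reads of the pair cannot be told apart with certainty over those bases. Gigyf2 was at 70.9 to 83.6 CPM over all mice and its log2 fold changes were -0.04 for NW, 0.00 for Water-Ethanol and -0.01 for NE against WW (edgeR, adjusted p = 0.839, 0.964 and 0.903). Its r with Kcnj13 inside groups was -0.23 (rho -0.19, permutation p = 0.49 and 0.542).

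Of 40 further choroid plexus genes 38 could be tested, and edgeR called 0 of them in the 6 comparisons. Their median log2 fold changes lay between -0.03 and 0.02, and at an unadjusted p under 0.05 there were 2, 6, 3, 3, 1 and 0 in the order above. Over all genes tested there were 1295 of 15344, 2965 of 15323, 2673 of 15313, 1830 of 15361, 888 of 15319 and 1054 of 15592. limma called 0 of the 38. Levels of Enpp2, the lysophospholipase that is the most abundant of them, were 669 ± 82.0, 659 ± 82.6, 668 ± 29.2 and 644 ± 39.9 CPM in WW, NW, Water-Ethanol and NE. By FPKM, Enpp2 (mean 202), Slc4a10 (60.02) and Slc12a2 (28.3), the latter genes being ion transporters also used by neurons and glia, were the highest of the list. DESeq2 called 1 gene, Trpv4, in NE against WW and in NE against NW. Trpv4, named here after its values were seen, encodes a calcium-permeable channel of the epithelium's ventricle-facing membrane that opens on swelling and warmth. It was at 3.58 to 5.05 CPM in WW, 3.70 to 4.47 in NW, 5.14 to 6.04 in the Water-Ethanol group and 5.59 to 6.79 in NE. As for Kcnj13, all 8 mice with ethanol were above all 8 without. How many of all genes separate these 8 from those 8 was not counted. For 4 against 4 mice the share was 10.8% in Water-Ethanol against WW, 10.7% in NE against WW and 7.44% in NE against NW. Its log2 fold changes were 0.36 in Water-Ethanol and 0.52 in NE against WW and 0.58 in NE against NW, with standard errors of 0.112, 0.112 and 0.103. edgeR's adjusted p-values were 0.12, 0.0714 and 0.134, and DESeq2's 0.0935, 0.00968 and 0.00561.

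Markers of neighbouring cell types were measured beside these values. edgeR called 0 of 9 ependymal genes (Rarres2 and Foxj1 the most abundant), 0 of 11 meningeal fibroblast genes (Igfbp2, Igf2), 0 of 4 cerebellar granule cell genes (Cbln1, Gabra6) and 0 of 1 testable pituitary gene (Pomc, with Prl listed at 0 in most mice) in any comparison, and DESeq2 and limma called 0 of them as well. At an unadjusted p under 0.05 edgeR gave, in the order above, 1, 0, 1, 1, 0 and 0 ependymal, 0, 3, 8, 2, 2 and 0 meningeal, 0, 0, 0, 0, 3 and 0 cerebellar and 1, 0, 0, 0, 0 and 1 pituitary genes. Over all genes tested it gave 1295 of 15344, 2965 of 15323, 2673 of 15313, 1830 of 15361, 888 of 15319 and 1054 of 15592. The summed FPKM of the ependymal list ran from 25.3 to 27.5 in WW, 25.7 to 30.1 in NW, 26.5 to 28.8 in the Water-Ethanol group and 23.8 to 32.7 in NE. That of the meningeal list ran from 115 to 138, 113 to 131, 98.4 to 130 and 108 to 118 in the same order. In NE against WW 10 of the 11 meningeal genes were lower, with a median log2 fold change of -0.19. Of 7 endothelial genes (Ly6c1, Slc2a1), edgeR called Slco1a4 in NE against WW (log2 fold change -0.31, standard error 0.0432, edgeR, adjusted p = 0.0259). Slco1a4 is an organic anion transporter named after its values were seen. Over all genes edgeR called 0.313% in that comparison. DESeq2 called 1, 2 and 1 of the 7 in Water-Ethanol and NE against WW and in NE against NW. Its shares over all genes there were 5.14%, 4.3% and 0.765%. At an unadjusted p under 0.05 edgeR gave 1, 3, 2, 2, 0 and 0 endothelial genes in the order above. The summed endothelial FPKM of the groups overlapped, with 163.9 to 172 in WW and 158 to 174 in NE. No marker of these lists in the FPKM table was below 0.1 FPKM in every mouse. The part of these cell types in the Kcnj13 difference was not tested.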

How the data were processed

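Whole-brain RNA-seq of 16 mice, 4 in each of WW, NW, Water-Ethanol and NE, was examined, grouped by the labels. Per the submitters' notes, reads were trimmed with Trimmomatic 0.32 and mapped by TopHat2 (GRCm38). The authors deposited unnormalized whole read counts per gene. The counting program is not given in the sources used here. A second deposited table holds FPKM, made by the authors with Cufflinks and Cuffdiff, and it carries no depth. The labels name an unstranded kit and the paper describes a stranded one. The members and gene lists were chosen with earlier results of these data known.

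Counts were analysed in R 4.3.3 with edgeR 4.0.16 (quasi-likelihood test on the compared groups, TMM, default filter on low counts, Benjamini-Hochberg over all genes tested, threshold 0.05). Standard errors are the size of the log2 fold change over the root of the F statistic. CPM values use TMM factors over all 16 mice. Correlations used log2(CPM + 0.5) and 100000 permutations. The rest used matplotlib 3.10.9, pandas 2.3.3, scipy 1.17.1 and numpy 2.4.6 under Python 3.11.15. Alternatives were RLE factors, no filter, DESeq2 1.42.0, limma 3.58.1 on log2(FPKM + 1) at a mean FPKM of at least 0.1, fits of all 16 mice, other references and pseudocounts, and leaving out mice. The edgeR fit of Water-Ethanol against WW was tested on simulated counts with known changes, and the other fits were not.

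Named genes were all members, the 5 most like Kcnj13 and the 5 most like the mean of the other 9, genes overlapping Kcnj13, list genes that passed the test, and the most abundant genes of each list. One gene that this rule named is not reported here. Promoter windows come from a RefSeq table, which matched 7 members.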

Additional observations from a re-analysis of the deposited data

Results flagged for a closer look

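In 44 groups of 4 mice (the 10 genes and the difference of Kcnj13 from the other 9, in each group) a mouse was marked where its gap to the nearest other mouse, over the group's range, passed Dixon's critical value for a group of this size. Chance alone marks about 1 group in 20, and 4 were marked here. NW replicate 10 was at 2.66 CPM of Folr1, against 4.54 to 4.60 in the other NW mice, and at 4.96 CPM of Otx2, against 7.98 to 8.21. This is the brain with low cerebellar markers, high pituitary genes and 3.90% of counts on Rn45s. Slc4a5 was at 5.97 CPM in Water-Ethanol replicate 15, against 6.58 to 6.595 in that group, and at 5.54 CPM in NE replicate 3, against 6.30 to 6.39. No value of Kcnj13, nor of its difference from the other 9, was marked.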

How the results depend on the processing

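No paired analysis was possible because the groups share no replicate numbers. Kcnj13 was the 1 member called in Water-Ethanol and in NE against WW, and limma on log2(FPKM + 1) called 0 members in both. DESeq2 and the fit of all 16 mice each called 1 member, Kcnj13, in NE against NW, where the fit of the compared groups called 0. Over all genes they called 93 and 57 there. NE against NW shares the NE mice whose values chose Kcnj13, so these calls do not test it. Over the fits that left out 1 mouse, 0 to 2 members were called in each ethanol comparison with WW, 2 being Kcnj13 and Prlr without WW replicate 21. Kcnj13's log2 fold change itself stayed between 0.57 and 0.70 in Water-Ethanol and between 0.49 and 0.62 in NE. Without WW replicate 21 the calls over all genes rose too, from 70 to 797 in Water-Ethanol and from 48 to 283 in NE. Relative to Ttr alone the Kcnj13 difference from WW was -0.0443 for NW, 0.42 for Water-Ethanol and 0.41 for NE, and relative to the median of the other 9 it was -0.0632, 0.39 and 0.37. The 6 relations of Kcnj13 that passed became 1 with group means kept and 1 without both mice with low cerebellar markers (chosen after seeing the data), and 0 to 6 when 1 mouse was left out. With group means kept r was -0.13 for Aqp1 and 0.0819 for Gigyf2, and without that pair of mice it was 0.0111 for Gigyf2. Leaving out single mice gave r of -0.39 to 0.0928 for Prlr and -0.36 to 0.0134 for Gigyf2. Small fold changes turned sign without passing any threshold. In NW against WW the Slc4a5 value was -0.00452 with limma, and Folr1 was 0.052 without both mice with low cerebellar markers. Kl in NE against WW was -0.000386 with RLE factors, -0.0022 without a filter, -0.000869 with DESeq2 and -0.00147 in the fit of all 16 mice. With 1 mouse left out, NW against WW ran from -0.0382 to 0.0959 for Kcnj13, -0.00841 to 0.21 for Ttr, -0.10 to 0.10 for Folr1, -0.0896 to 0.0377 for Clic6, -0.0432 to 0.11 for Kl and -0.0657 to 0.18 for Slc4a5. Water-Ethanol against WW ran from -0.17 to 0.0124 for Folr1, -0.0561 to 0.0801 for Kl, -0.16 to 0.0696 for Aqp1 and -0.0947 to 0.0229 for Cldn2, and NE against WW from -0.0692 to 0.0691 for Kl. NE against NW ran from -0.12 to 0.10 for Ttr, -0.00498 to 0.20 for Folr1, -0.12 to 0.0271 for Kl, -0.11 to 0.10 for Otx2, -0.11 to 0.14 for Slc4a5, -0.0512 to 0.10 for Prlr and -0.0948 to 0.19 for Cldn2. NE against Water-Ethanol ran from -0.0616 to 0.0249 for Kl, and the interaction from -0.0846 to 0.0504 for Clic6, -0.13 to 0.035 for Kl, -0.24 to 0.0182 for Aqp1 and -0.0642 to 0.22 for Cldn2. The cause was not tested. DESeq2 gave no adjusted p-value for 6 member values, which were left out. Members at 71 to 324 reads per mouse, such as Cldn2 and Kcnj13, carry the most counting error, and FPKM give no depth.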

Other observations

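Kcnj13 was also set beside 14 other genes of its channel family, the inward rectifiers, of which 12 could be tested and 2 were below 0.1 FPKM in every mouse. edgeR, DESeq2 and limma called 0 of them in all 6 comparisons, and edgeR gave 0, 2, 2, 1, 2 and 0 at an unadjusted p under 0.05. Over all genes tested it gave 1295 of 15344, 2965 of 15323, 2673 of 15313, 1830 of 15361, 888 of 15319 and 1054 of 15592. The summed FPKM of these inward rectifiers ran from 265 to 274 in WW, 259 to 273 in NW, 258 to 268 in Water-Ethanol and 264 to 274 in NE. Kcnj10, the potassium channel of astrocytes, was the most abundant (mean 96.5 FPKM), ahead of the neuronal genes Kcnj4 (38.7) and Kcnj9 (37.8). Kcnj8, an ATP-sensitive channel of pericytes and smooth muscle that was named after its values were seen, was at 3.22 ± 0.607 CPM in WW, 3.15 ± 0.603 in NW, 2.32 ± 0.288 in the Water-Ethanol group and 2.46 ± 0.19 in NE (SD, n = 4). Its log2 fold changes against WW were -0.47 in Water-Ethanol and -0.39 in NE (edgeR, adjusted p = 0.139 and 0.201).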
